A study of Danio rerio with 1536 samples.

Results

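Axon guidance molecules are secreted or membrane-bound ligands and the receptors that detect them on growing axons. Netrins act through DCC, which mediates attraction, and through UNC5 receptors, which mediate repulsion, whereas slits repel axons through ROBO receptors. Class 3 semaphorins are secreted and act through complexes of neuropilins and plexins, and ephrins, anchored in the membrane, act through the Eph receptor tyrosine kinases. In the spinal cord these systems guide commissural axons at the midline and sort motor axons on their way to muscle, and many of them remain expressed in adult neurons.

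The expression of these ligands and receptors was examined in single neurons of the adult zebrafish spinal cord. Genes were chosen by symbol alone, as ephrins, Eph receptors, class 3 to 7 semaphorins, plexins, neuropilins, netrins, DCC, UNC5 receptors, slits and robos, which gave 99 of the 32519 genes in the count tables. They comprised 14 ephrins, 16 Eph receptors, 30 semaphorins, 14 plexins, 4 neuropilins, 5 netrins, 7 DCC and UNC5 receptors, 4 slits and 4 robos. The remaining gene, UNC50, met the rule by its letters only and belongs to none of these families. Symbols came from a separate name table that writes many of them in capitals, and 34 of the 99 genes shared a symbol with at least 1 other gene, so copies are given with their Ensembl identifier. All 99 genes had reads in at least 1 cell, and 97 passed the filter on low counts in at least 1 comparison.

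Cells were sorted by FACS from 7-week-old zebrafish and sequenced with Smart-seq2, which reads full-length transcripts of single cells. GFP+ cells of the transgenic line isl1a:GFP, which labels motoneurons (MNs) and other spinal neurons, filled 2 plates, and GFP+ cells of the line chx10:GFP, which labels V2a interneurons (V2a INs), filled 2 more. Each plate had 384 wells and held cells from 1 pool of 6 to 10 spinal cords, so that the pool was the replicate and each line had 2. Of 1536 wells, 1247 passed quality control, with 259 and 363 from isl1a:GFP fish and 300 and 325 from chx10:GFP fish.

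Passing wells held between 10850 and 1069005 reads, and their medians per plate were 403751 and 436783 for isl1a:GFP and 324159 and 367903 for chx10:GFP wells. The guidance genes took 0.379% and 0.407% of the reads in isl1a:GFP cells and 0.443% and 0.463% in chx10:GFP cells. On the first isl1a:GFP plate 121 wells had too few genes and 4 too many, and 114 wells also exceeded the limit on spike-in reads. Although every isl1a:GFP well carried the label of a motoneuron, clustering gave 330 MN-like cells, 171 cells like cerebrospinal-fluid-contacting (CSF-contacting) neurons, 60 serotonergic-like cells and a rest of 61 cells.

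MN-like cells separated into immature (67), caudal (96), fast (55) and slow/intermediate (112) clusters, and chx10:GFP cells into immature (68), cholinergic (230), esrrga (181) and shox2 (146) clusters. The caudal cluster was named from hox13 genes, with a mean z-score of 1.3, against 0.38 for slow/intermediate markers. No hox13 gene was among its leading genes, and without integration of the plates it held 42 cells, so its name is tentative. The guidance genes were held out of the genes used for clustering, but the clusters still came from other genes of the same cells. Only 8 and 15 cells of the fast and immature MN clusters, and 10 of the immature V2a cluster, came from the first plate of their line. Levels are given in CPM, the counts summed over the cells of a group on a plate and scaled to a common library size within each comparison, and pairs of values are plates 1 and 2. Levels of different genes were not compared, because reads also scale with transcript length. A gene was called when edgeR's quasi-likelihood test, adjusted over all genes, gave p below 0.05 and a log2 difference of at least 0.25 in size.

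Single cells had reads of only some of these genes at a time. After all cells were thinned to 240501 reads, for which 36 cells of the isl1a:GFP and 89 of the chx10:GFP line were too shallow, the median cell had at least 10 reads of between 10 and 15 guidance genes, depending on the group and plate. Across the 99 genes, 39 had 10 reads in at least 10% of MN-like cells and 40 in at least 10% of chx10:GFP cells. A threshold of 10 reads was used for shares of cells because TPH2, a gene of serotonin synthesis that MNs should lack, had 10 reads in 0.319% of MN-like cells (95% exact interval 0.00806 to 1.76%) and in 100% of serotonergic-like cells, whereas 28.7% of MN-like cells had at least 1 read of it. Intervals on shares treat cells as independent draws and cover no spread between pools of spinal cords. The reads carry no molecular identifiers.

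The first comparison set MN-like cells against all chx10:GFP cells, the cells that supply the muscle against those that drive them. The genes called were the semaphorins SEMA3F and sema3aa and the ephrin efnb3a, all lower in MN-like cells. Of the 95 guidance genes tested, 0 were called higher and 3 lower in MN-like cells, against 0.692% of all genes called. A further 22 had an unadjusted p below 0.05 without being called. Of all 22831 genes tested, 3335 had an unadjusted p below 0.05. The median log2 difference of the guidance genes was −0.14, against −0.03 over all genes tested.

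SEMA3F (ENSDARG00000011163), a repellent that acts through neuropilin 2, had 4.28 and 4.33 CPM in MN-like cells, against 252 and 212 CPM in chx10:GFP cells. Its log2 difference was −5.75 (SE 0.36, adjusted p = 0.0134). With cells thinned, 2.55% of MN-like cells (1.11 to 4.96%) had 10 reads of it, against 45.7% of chx10:GFP cells (41.4 to 50%). The second copy named SEMA3F (ENSDARG00000055373) had 8.82 and 3.09 CPM in MN-like cells and 79.0 and 103 CPM in chx10:GFP cells, and was not called (adjusted p = 0.0545).

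The semaphorin sema3aa, a ligand of neuropilin 1, had 35.8 and 32.6 CPM in MN-like cells, against 467 and 323 CPM in chx10:GFP cells (log2 difference −3.53, SE 0.36, adjusted p = 0.0262). It reached 10 reads in 13.1% of MN-like cells (9.54 to 17.3%) and in 52.6% of chx10:GFP cells (48.3 to 56.9%). The gene listed as SEMA3A followed the same order without being called, with 0.608 and 5.46 CPM in MN-like cells and 159 and 139 CPM in chx10:GFP cells (adjusted p = 0.0884).

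The ephrin efnb3a, a transmembrane ligand of Eph receptors that in mice keeps corticospinal axons from recrossing the midline, had 0.264 and 0.932 CPM in MN-like cells, against 32.5 and 35.6 CPM in chx10:GFP cells (log2 difference −5.80, SE 0.75, adjusted p = 0.0413). Only 0.319% of MN-like cells (0.00806 to 1.76%) had 10 reads of it, the same share as for TPH2, against 14.9% of chx10:GFP cells (12 to 18.2%). The gene listed as EFNB3 did not share this pattern and was not called. It had 27.4 and 31.2 CPM in MN-like cells and 18.6 and 43.9 CPM in chx10:GFP cells. For all 3 called genes the plates of the populations did not overlap.

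Within the mature chx10:GFP clusters these genes were unevenly spread. SEMA3F (ENSDARG00000011163) had 367 and 229 CPM in the cholinergic, 341 and 252 CPM in the esrrga and 40.6 and 16.9 CPM in the shox2 cluster. For sema3aa the levels were 685 and 424 CPM in the cholinergic, 656 and 513 CPM in the esrrga and 64.8 and 13.3 CPM in the shox2 cluster. The ephrin efnb3a had 60.1 and 67.2 CPM, 36.2 and 19.2 CPM, and 1.97 and 0.13 CPM in the cholinergic, esrrga and shox2 clusters, so that shox2 was the lowest of these mature clusters for each gene on both plates. The immature cluster was not always above it, as efnb3a had 0 and 31.5 CPM there.

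Several receptors and 1 slit differed by a wide margin on every plate and still missed the threshold. SLIT3, a secreted ligand of ROBO receptors, had 559 and 1122 CPM in MN-like cells and 58.8 and 129 CPM in chx10:GFP cells (log2 difference 3.16, adjusted p = 0.0796), and 91.4% of MN-like cells (87.7 to 94.3%) had 10 reads of it, against 31.7% of chx10:GFP cells (27.8 to 35.8%). The slit receptor ROBO2 lay the other way, at 118 and 94.0 CPM in MN-like cells and 381 and 390 CPM in chx10:GFP cells (adjusted p = 0.0679). The semaphorin receptor NRP1 had 248 and 280 CPM in MN-like cells and 36.4 and 91.6 CPM in chx10:GFP cells (adjusted p = 0.160), and its co-receptor PLXNA4 had 76.5 and 61.3 CPM in MN-like cells and 184 and 250 CPM in chx10:GFP cells (adjusted p = 0.110). The Eph receptor epha7 had 19.1 and 19.9 CPM in MN-like cells and 75.2 and 94.9 CPM in chx10:GFP cells (adjusted p = 0.0573).

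**Figure D1:**
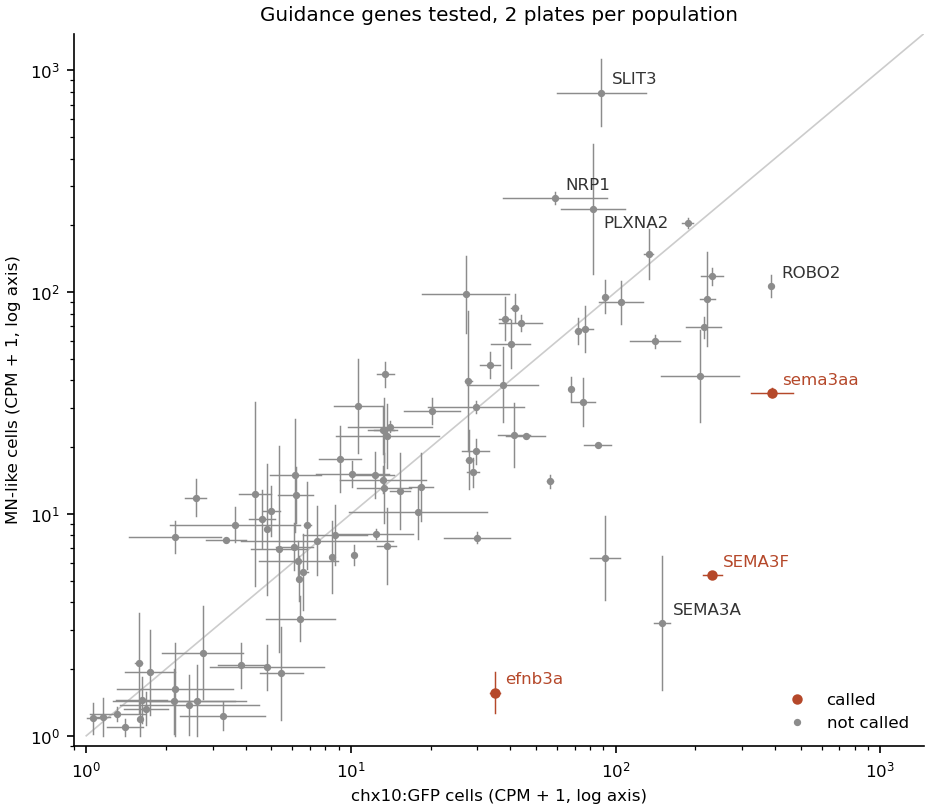
Each point is 1 of the 95 guidance genes tested, with its mean level in MN-like cells (y axis) against chx10:GFP cells (x axis) in CPM + 1 on log axes; lines span the 2 plates of each population, and the diagonal marks equal levels. The 3 called genes, SEMA3F (ENSDARG00000011163), sema3aa and efnb3a, lie below the diagonal, and SLIT3, which was not called, lies above it.

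Other lists of guidance-related genes were read beside these genes. Of 50 cytoplasmic effectors of guidance signalling, such as the collapsin response mediators (DPYSL genes) that act below semaphorin receptors, 0 were called by edgeR, 13 had an unadjusted p below 0.05, and the median log2 difference was 0.13. Of 51 genes tested from other guidance and axon adhesion systems, 2 were lower in MN-like cells, the chemokine cxcl12b (log2 difference −7.36, adjusted p = 0.0379) and draxinb, a secreted DCC ligand (log2 difference −7.33, adjusted p = 0.0413). The 8 oligodendrocyte markers summed to 1196 and 1089 CPM in MN-like cells and to 2383 and 6472 CPM in chx10:GFP cells, and their part in these differences was not tested. Under alternatives, which included leaving out 1 plate at a time, the log2 difference ran from −5.87 to −5.42 for SEMA3F (ENSDARG00000011163). It ran from −3.77 to −3.22 for sema3aa and from −6.99 to −5.18 for efnb3a. Under a stricter minimum of genes per well efnb3a lost its call (adjusted p = 0.0608).

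The isl1a:GFP cells held further neuron classes, which allowed the guidance genes to be compared between MN-like cells and other neurons of the same plates. Each class was set against the mean of the other classes, with plate as a block. The classes differed most clearly in NTN1 (ENSDARG00000022531), a secreted netrin, which was abundant in the CSF-contacting-like and serotonergic-like cells and scarce in the others. The second copy named NTN1 (ENSDARG00000105112) did not share this pattern and was not called. It had 15.2 and 33.3 CPM in CSF-contacting-like, 5.22 and 17.7 CPM in serotonergic-like, 31.7 and 15.4 CPM in MN-like and 10.1 and 73.1 CPM in the remaining cells. In all, 25 of the 92 guidance genes tested (27.2%) were called in at least 1 class, against 7.85% of all genes.

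NTN1 (ENSDARG00000022531) had 1077 and 806 CPM in CSF-contacting-like cells, against 830 and 985 CPM in serotonergic-like, 7.95 and 14.7 CPM in MN-like and 1.07 and 0.753 CPM in the rest of the cells. It reached 10 reads in 92.2% of CSF-contacting-like cells (87 to 95.8%), 94.5% of serotonergic-like cells (84.9 to 98.9%), 3.19% of MN-like cells (1.54 to 5.78%) and 0% of the rest (0 to 6.98%). It was higher in the CSF-contacting-like class (log2 difference 5.49, SE 0.29, adjusted p = 0.000215) and in the serotonergic-like class (5.41, SE 0.29, adjusted p = 0.000271), and lower in the MN-like class (−3.04, SE 0.37, adjusted p = 0.0104) and the rest (−7.86, SE 0.50, adjusted p = 0.00124), each against the mean of the other classes. Under a stricter minimum of genes per well, which refitted the classes, it kept its call in CSF-contacting-like cells (adjusted p = 0.047) and lost it in serotonergic-like, MN-like and remaining cells (adjusted p = 0.0615, 0.12 and 0.429).

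CSF-contacting neurons line the central canal and sense the fluid within it. In the CSF-contacting-like class 12 of 92 guidance genes were called, 5 higher and 7 lower, against 4.92% of all genes, and the median log2 difference was −0.56 for the guidance genes and 0.20 over all genes. Among the semaphorins, sema3aa had 651 and 445 CPM in this class, against 134 and 29.1 CPM in serotonergic-like, 35.1 and 31.1 CPM in MN-like and 71.9 and 73.4 CPM in the remaining cells (log2 difference 3.26, adjusted p = 0.00447). SEMA4C, a transmembrane semaphorin that in mammals binds plexin B2, had 288 and 192 CPM in this class and between 38.7 and 62.7 CPM on the plates of the other classes (log2 difference 2.27, adjusted p = 0.00572). A plexin B2 copy was higher too, as plxnb2b had 34.1 and 36.3 CPM in this class and at most 6.83 CPM elsewhere (log2 difference 3.34, adjusted p = 0.0382). The last gene called higher was PLXNA4, a plexin that acts with neuropilins, at 556 and 361 CPM in this class and a log2 difference of 3.0 (adjusted p = 0.00646).

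Of the 7 genes lower in CSF-contacting-like cells, 4 were receptors. UNC5D (ENSDARG00000061541), a repulsive netrin receptor, had 0.51 and 0.647 CPM in this class, against 165 and 52.7 CPM in serotonergic-like cells (log2 difference −4.27, adjusted p = 0.0212). The slit receptor ROBO2 had 2.14 and 15.5 CPM, against 27.2 to 208 CPM on the plates of the other classes (log2 difference −3.70, adjusted p = 0.0291). EPHA6, an Eph receptor, had 1.15 and 0.696 CPM, against 14.1 to 53.4 CPM elsewhere (log2 difference −4.99, adjusted p = 0.00903). EPHB3 (ENSDARG00000031548) fell by 2.56 on the log2 scale, and the ligands EFNA3, SLIT3 and sema3h were lower as well, with log2 differences of −6.25, −2.31 and −8.05. The value for sema3h rested on 5 reads in all CSF-contacting-like cells. Under a stricter minimum of genes per well sema3h and EFNA3 lost their calls in this class (adjusted p = 0.0503 and 0.196), as did EFNA3 with 15 principal components (adjusted p = 0.102).

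In serotonergic-like cells 15 of 92 guidance genes were called, 12 higher and 3 lower, against 3.11% of all genes, with a median log2 difference of −0.01 for the guidance genes and −0.27 over all genes. Eph receptors made up 4 of the genes called higher. The receptor epha7 had 169 and 360 CPM in serotonergic-like cells, against 42.2 and 60.1 CPM in CSF-contacting-like, 18.7 and 18.99 CPM in MN-like and 15.3 and 27.8 CPM in the remaining cells (log2 difference 3.20, SE 0.29, adjusted p = 0.00215). A second receptor, epha4b, had 600.5 and 1000.4 CPM in serotonergic-like cells, against 7.62 to 208 CPM on the plates of the other classes (log2 difference 2.96, adjusted p = 0.0286). EPHA3 (log2 difference 2.62) and EPHA4 (ENSDARG00000054454, 2.03) were the others, and the transmembrane ephrin EFNB2 was higher as well (1.70). This EPHA4 copy had 66.4 and 218 CPM in serotonergic-like and 58.8 and 89.6 CPM in MN-like cells. The second copy named EPHA4 (ENSDARG00000010767) was not called, with 0.442 and 0 CPM in serotonergic-like and 5.93 and 11.4 CPM in MN-like cells.

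Serotonergic-like cells combined the netrin ligand with a netrin receptor. UNC5D (ENSDARG00000061541) had 165 and 52.7 CPM in serotonergic-like cells, against 7.93 and 4.38 CPM in MN-like cells and 6.48 and 1.58 CPM in the rest (log2 difference 5.34, SE 0.54, adjusted p = 0.00308). Both slit ligands that were called, SLIT2 (log2 difference 2.05) and SLIT3 (1.76), and the receptor ROBO3 (1.85), which in mice is needed for axons to cross the midline, were higher in this class. SEMA3C, a secreted semaphorin, had 111 and 27.8 CPM in serotonergic-like cells and at most 6.40 CPM on the plates of the other classes (log2 difference 4.96, adjusted p = 0.0401), and the plexin plxnb2a.1 rose by 2.51 on the log2 scale.

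The 3 genes lower in serotonergic-like cells were 2 plexins of the class A family and a class 3 semaphorin. PLXNA4 had 4.60 and 14.03 CPM in serotonergic-like cells, against 556 and 361 CPM in CSF-contacting-like, 75.1 and 58.6 CPM in MN-like and 349 and 250 CPM in the remaining cells (log2 difference −4.48, SE 0.58, adjusted p = 0.00796). PLXNA1 (ENSDARG00000105452) had 0.619 and 0.321 CPM, against 1.75 to 70.7 CPM elsewhere (log2 difference −5.55, adjusted p = 0.0332). The second copy named PLXNA1 (ENSDARG00000114823) did not share this pattern and was not called. It had 26.5 and 44.1 CPM in serotonergic-like cells and 0.638 to 33.4 CPM on the plates of the other classes. SEMA3A had 0 reads in serotonergic-like cells and was at least 66.6-fold lower than in the mean of the other classes, with a floor of 3 reads per plate (adjusted p = 0.0304).

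In MN-like cells 5 of 92 guidance genes were called, 4 higher and 1 lower, against 1.88% of all genes, with a median log2 difference of 0.59 for the guidance genes and 0.32 over all genes. SLIT3 had 548 and 1073 CPM in MN-like cells, against 592 and 549 CPM in serotonergic-like, 69.0 and 69.2 CPM in CSF-contacting-like and 90.5 and 86.3 CPM in the remaining cells (log2 difference 2.38, SE 0.26, adjusted p = 0.00663). On plate 1 the serotonergic-like cells were thus above the MN-like cells. NRP1, the binding receptor for SEMA3A-type ligands, had 244 and 268 CPM in MN-like cells and 8.66 to 56.2 CPM on the plates of the other classes (log2 difference 2.81, SE 0.48, adjusted p = 0.032). The plexin PLXNA1 (ENSDARG00000105452) had 43.7 and 70.7 CPM in MN-like cells (log2 difference 3.45, adjusted p = 0.0436), and sema3h had 35.8 and 45.5 CPM (log2 difference 4.18, adjusted p = 0.0188), but for both genes the rest of the cells reached 66.1 and 58.8 CPM on plate 2. The call of sema3h was lost under a stricter minimum of genes (adjusted p = 0.107) and with plates merged without integration (0.0643), and that of NRP1 with the guidance genes kept for clustering (0.0758).

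The rest of the isl1a:GFP cells, whose leading genes included the glutamate transporter SLC17A6, had 10 of 92 guidance genes called, 8 higher and 2 lower, against 1.77% of all genes, with a median log2 difference of 0.10 for the guidance genes and 0.03 over all genes. The plexin plxnb3 had 16.0 and 40.5 CPM in the rest of the cells and no more than 2.66 CPM in any other class (log2 difference 6.19, adjusted p = 0.0311). ROBO2 had 189 and 208 CPM, against 2.14 to 116 CPM in the other classes (log2 difference 2.71, SE 0.51, adjusted p = 0.0468), and EFNA3, an ephrin held by a lipid anchor, had 43.3 and 31.3 CPM, against 0.255 to 33.7 CPM (log2 difference 3.14, SE 0.60, adjusted p = 0.0471). The others called higher were SEMA3A, sema3h, PLXNA4, EPHA6 and EPHB3 (ENSDARG00000031548), with log2 differences between 1.95 and 6.32. The largest (SE 1.86) was that of SEMA3A, which had 16.7 and 47.5 CPM in the rest and 3.95 and 27.2 CPM in CSF-contacting-like cells. SEMA3A had 0 CPM in serotonergic-like cells, and 9.80% of the rest of the cells (3.26 to 21.4%) had 10 reads of it. The 8 oligodendrocyte markers summed to 1848 and 17790 CPM in the rest of the cells and to 1089 to 2214 CPM on the plates of the other classes, and their part in these differences was not tested. With the rest left out, a choice made after seeing the data, ROBO2 was no longer called in CSF-contacting-like cells (adjusted p = 0.079). PLXNA1 (ENSDARG00000105452) was then no longer called in serotonergic-like cells (adjusted p = 0.0808), and the log2 difference of NTN1 (ENSDARG00000022531) in MN-like cells was −6.37. Without the plate block PLXNA1 was lost in MN-like cells (adjusted p = 0.0628), as were ROBO2, SEMA3A and plxnb3 in the rest (adjusted p = 0.0719, 0.0796 and 0.0591). In the rest the calls of EFNA3 and sema3h were lost in 3 and 2 of 12 alternatives (adjusted p of up to 0.348 and 0.21), and that of SEMA3C in serotonergic-like cells in 1 (0.0572).

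**Figure D2:**
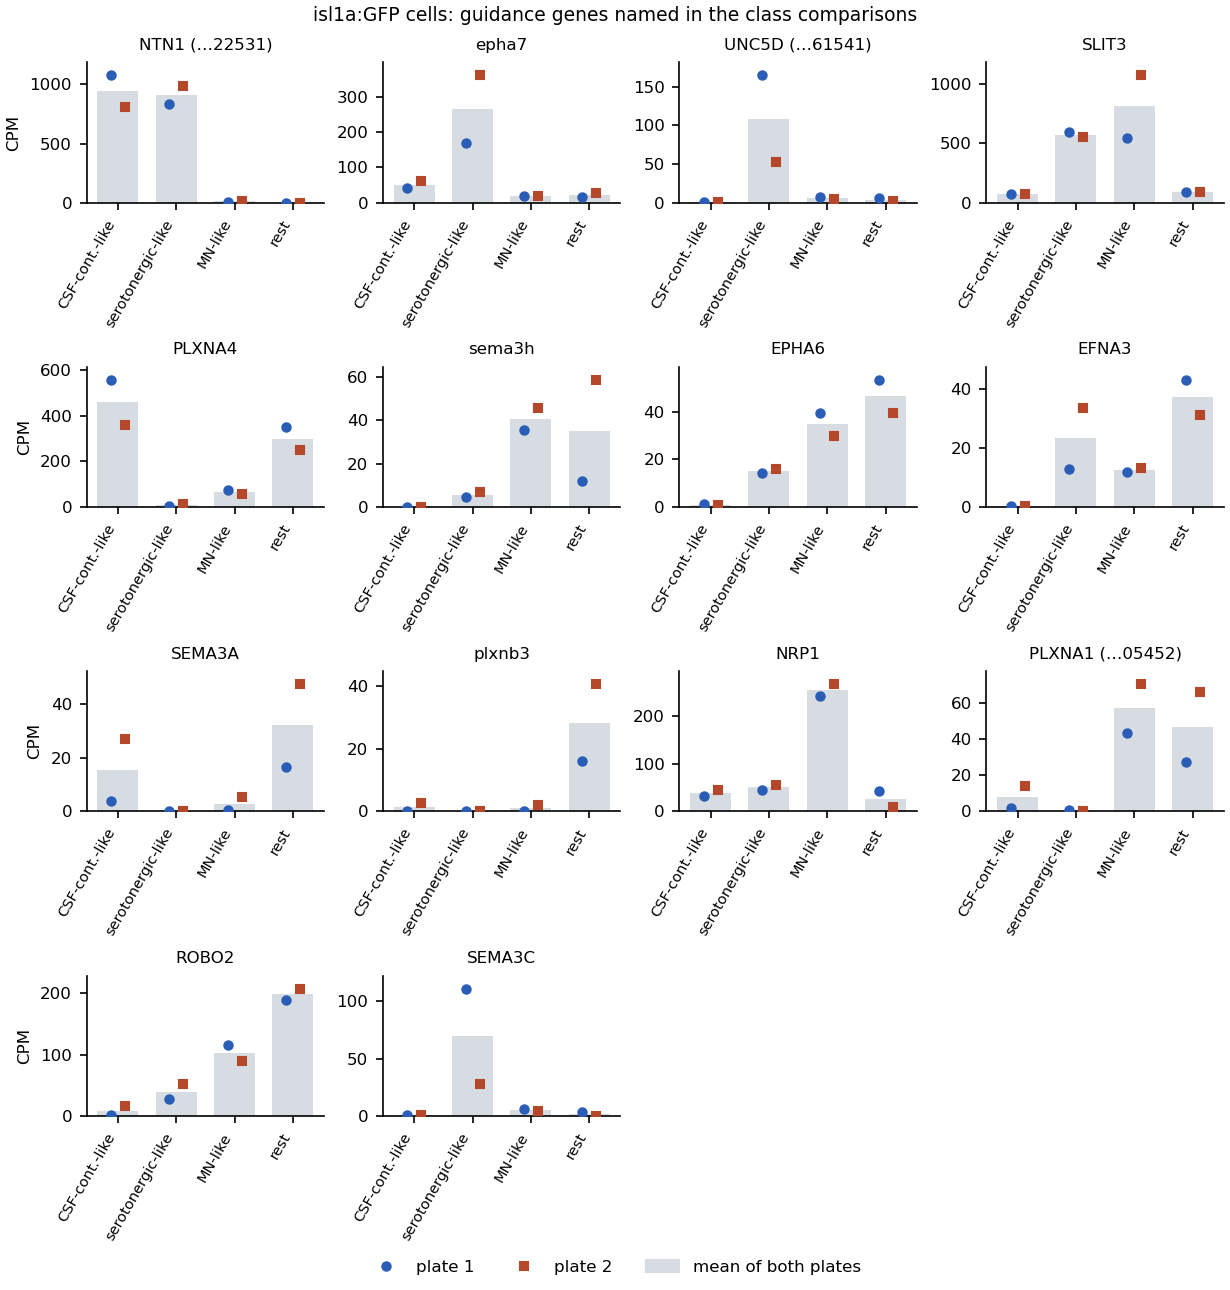
Levels of the guidance genes named in the class comparisons, in CPM (y axes, each from 0), in the 4 classes of isl1a:GFP cells (x axes); points are plates 1 and 2 and bars their mean. NTN1 (ENSDARG00000022531) lies between 806 and 1077 CPM in CSF-contacting-like and serotonergic-like cells and at 14.7 CPM or less in the others, and NRP1 is highest in MN-like cells on both plates.

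The other lists were read against the same shares of all genes, 4.92% in CSF-contacting-like, 3.11% in serotonergic-like, 1.88% in MN-like and 1.77% in the remaining cells. Among genes of other guidance and adhesion systems, 12 of 50 were called in CSF-contacting-like cells, including the neurotrophic factor GDNF (log2 difference 8.16), 8 in serotonergic-like, 5 in MN-like and 3 in the remaining cells. All 5 in MN-like cells were higher, among them the cell adhesion molecule ALCAM (2.97) and gfra3, a co-receptor of the GDNF family (3.31). Of 49 cytoplasmic effectors, 3, 2, 3 and 1 were called in the CSF-contacting-like, serotonergic-like, MN-like and remaining cells, or 6.12%, 4.08%, 6.12% and 2.04% of those tested, near the share of all genes except in MN-like cells. The semaphorin effector DPYSL4 was lower in CSF-contacting-like (−2.42) and higher in MN-like cells (1.93).

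The next comparison asked which guidance genes set immature MNs apart from the mature clusters. Immature MNs had more of the netrin receptor DCC and of PLXNA2, a plexin of the semaphorin pathway, and less of SEMA5A and EPHA6. Of 87 guidance genes tested, 4 were called, 2 higher and 2 lower, against 0.357% of all genes, with a median log2 difference of 0.17 for the guidance genes and −0.18 over all genes. Markers of immature neurons summed to 15600 and 25330 CPM in the immature cluster and to 4178 to 14820 CPM in the other MN clusters.

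DCC had 462 and 216 CPM in immature MNs, against 35.5 and 34.9 CPM in caudal, 19.9 and 74.8 CPM in fast and 22.1 and 52.5 CPM in slow/intermediate MNs (log2 difference 3.27, SE 0.53, adjusted p = 0.0391). It reached 10 reads in 75.8% of immature MNs (63.3 to 85.8%), against 25.8% of caudal, 45.1% of fast and 27.8% of slow/intermediate MNs. PLXNA2 had 554 and 1080 CPM in immature MNs, against 81.5 and 138 CPM in caudal, 188 and 355 CPM in fast and 45.0 and 233 CPM in slow/intermediate MNs (log2 difference 2.42, SE 0.33, adjusted p = 0.0278). Neither gene overlapped between immature and mature clusters on any plate.

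SEMA5A, a transmembrane semaphorin, had 7.72 and 1.5 CPM in immature MNs, against 28.8 and 27.2 CPM in caudal, 419 and 164 CPM in fast and 78.2 and 41.3 CPM in slow/intermediate MNs (log2 difference −4.38, SE 0.66, adjusted p = 0.0314). EPHA6 had 1 read in all immature MNs, against 4730 reads in the mature clusters (adjusted p = 0.0353), a ratio of 0.000848 after scaling to library size, with an exact counting interval of 2.15e-05 to 0.00473. That interval treats reads as independent and covers no spread between cells or plates. Under alternatives EPHA6 had log2 differences from −12.5 to −0.228. Its levels in the mature clusters were 75.0 and 96.7 CPM in caudal, 135 and 14.4 CPM in fast and 8.32 and 10.2 CPM in slow/intermediate MNs. SLIT3 was above the mature clusters on both plates, with 1151 and 1908 CPM in immature MNs, but was not called (log2 difference 1.21, adjusted p = 0.0545).

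Of 46 genes tested from other guidance systems 1 was called, FLRT3, a membrane protein that binds UNC5 receptors, which was higher in immature MNs (log2 difference 2.11, adjusted p = 0.0391). Of 48 effectors 0 were called by edgeR and 12 had an unadjusted p below 0.05, as did 2437 of all 18215 genes tested. Markers of CSF-contacting neurons summed to 749 CPM in immature MNs of plate 2 and 6 CPM of plate 1, against 8 to 39 CPM in the other MN clusters. With the MN-like cells that had 10 or more reads of the CSF-contacting markers urp1 and PKD2L1 left out (4 of the immature cells, a choice made after seeing the data), the same 4 genes were called. Without the plate block 0 were called, at adjusted p of 0.129 to 0.228 for the 4 genes, clustering over 15 principal components also lost all 4, integrating the MN-like cells on their own lost EPHA6 and DCC (adjusted p = 0.0619 and 0.0986), and without plate 1 the log2 difference of DCC was 2.07.

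Immature V2a INs were compared with the mature chx10:GFP clusters in the same way. The neuropilins NRP1 and NRP2 (ENSDARG00000096546), DCC, PLXNA2 and SLIT3 were higher in immature V2a INs, and 1 copy of SEMA3F was lower. Of 94 guidance genes tested, 8 were called, 7 higher and 1 lower, against 4.62% of all genes, with a median log2 difference of 0.09 for the guidance genes and −0.54 over all genes. Markers of immature neurons summed to 10880 and 9724 CPM in the immature cluster and to 2691 to 4421 CPM in the other chx10:GFP clusters.

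NRP1 had 286 and 273 CPM in immature V2a INs, against 54.4 and 93.1 CPM in cholinergic, 19.9 and 36.3 CPM in esrrga and 10.3 and 18.9 CPM in shox2 cells (log2 difference 3.26, SE 0.31, adjusted p = 0.00252). NRP2 (ENSDARG00000096546), the neuropilin that binds SEMA3F-type ligands, had 374 and 788 CPM in immature V2a INs, against 281 and 357 CPM in cholinergic, 113 and 115 CPM in esrrga and 21.3 and 8.26 CPM in shox2 cells (log2 difference 2.83, SE 0.38, adjusted p = 0.0077). The plexin PLXNA2 had 354.3 and 269 CPM in immature V2a INs and 18.2 to 114 CPM on the plates of the mature clusters (log2 difference 2.34, SE 0.43, adjusted p = 0.0244). For these receptors the immature cluster was the highest on both plates. The second copy named NRP2 (ENSDARG00000038446) did not share this pattern and was not called. It had 55.9 and 36.3 CPM in immature V2a INs and 25.0 to 51.5 CPM on the plates of the mature clusters.

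DCC had 170 and 114 CPM in immature V2a INs, against 37.1 and 41.0 CPM in cholinergic, 48.9 and 20.1 CPM in esrrga and 18.5 and 16.7 CPM in shox2 cells (log2 difference 2.29, SE 0.41, adjusted p = 0.0222). It reached 10 reads in 50% of immature V2a INs (36.8 to 63.2%), against 19.1% of cholinergic, 15.6% of esrrga and 13.4% of shox2 cells. The ligand SLIT3 had 183 and 309 CPM in immature V2a INs and 26.0 to 123 CPM in the mature clusters (log2 difference 1.76, SE 0.33, adjusted p = 0.0244).

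Semaphorins moved in both directions. SEMA4C had 234 and 351 CPM in immature V2a INs and 83.3 to 177 CPM in the mature clusters (log2 difference 1.27, SE 0.24, adjusted p = 0.0264). SEMA3F (ENSDARG00000055373) had 0 and 4.50 CPM in immature V2a INs, against 115 and 169 CPM in cholinergic, 79.1 and 86.3 CPM in esrrga and 54.1 and 90.2 CPM in shox2 cells (log2 difference −5.58, SE 1.03, adjusted p = 0.0244). The other copy (ENSDARG00000011163) was not called here, with 156 and 399 CPM in immature V2a INs and 16.9 to 367 CPM in the mature clusters. SEMA3A was called higher in immature V2a INs than in the mean of the mature clusters on the log scale (1.68, SE 0.27, adjusted p = 0.0147), although its 201 and 181 CPM were below the cholinergic cluster on both plates. SLIT3 was lost without the plate block (adjusted p = 0.0717), and clustering over 15 principal components lost SLIT3, PLXNA2 and DCC (adjusted p = 0.805, 0.123 and 0.0764). The call of SEMA3F (ENSDARG00000055373) was lost in 5 of 11 alternatives tested, at adjusted p of up to 0.608.

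The immature clusters of the lines, which share no plates, both showed higher DCC and PLXNA2. These 2 genes were 50% of the 4 called in immature MNs and 25% of the 8 called in immature V2a INs, against 57.8% and 3.88% for the 37 shared calls among all genes tested in both lines. The 4 genes called in immature MNs all had the same sign in V2a INs, and 7 of the 8 called in immature V2a INs (87.5%) had the same sign in MNs. Among all genes the same held for 93.8% of the calls in immature MNs and 90.7% of those in immature V2a INs, close to the shares of the guidance genes. Of the other lists, FLRT3 was higher in immature V2a INs too (log2 difference 2.07, adjusted p = 0.00333), with RGMB, a ligand of the DCC relative neogenin (2.94), and GFRA2 (2.41), whereas the adhesion molecule CNTN1 was lower (−2.87), which made 4 of 51 genes of other guidance systems. Among 49 effectors, RND3 (1.74), SRGAP3 (1.40) and DPYSL4 (2.15) were higher and RND1 (−1.77) was lower in immature V2a INs.

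**Figure D3:**
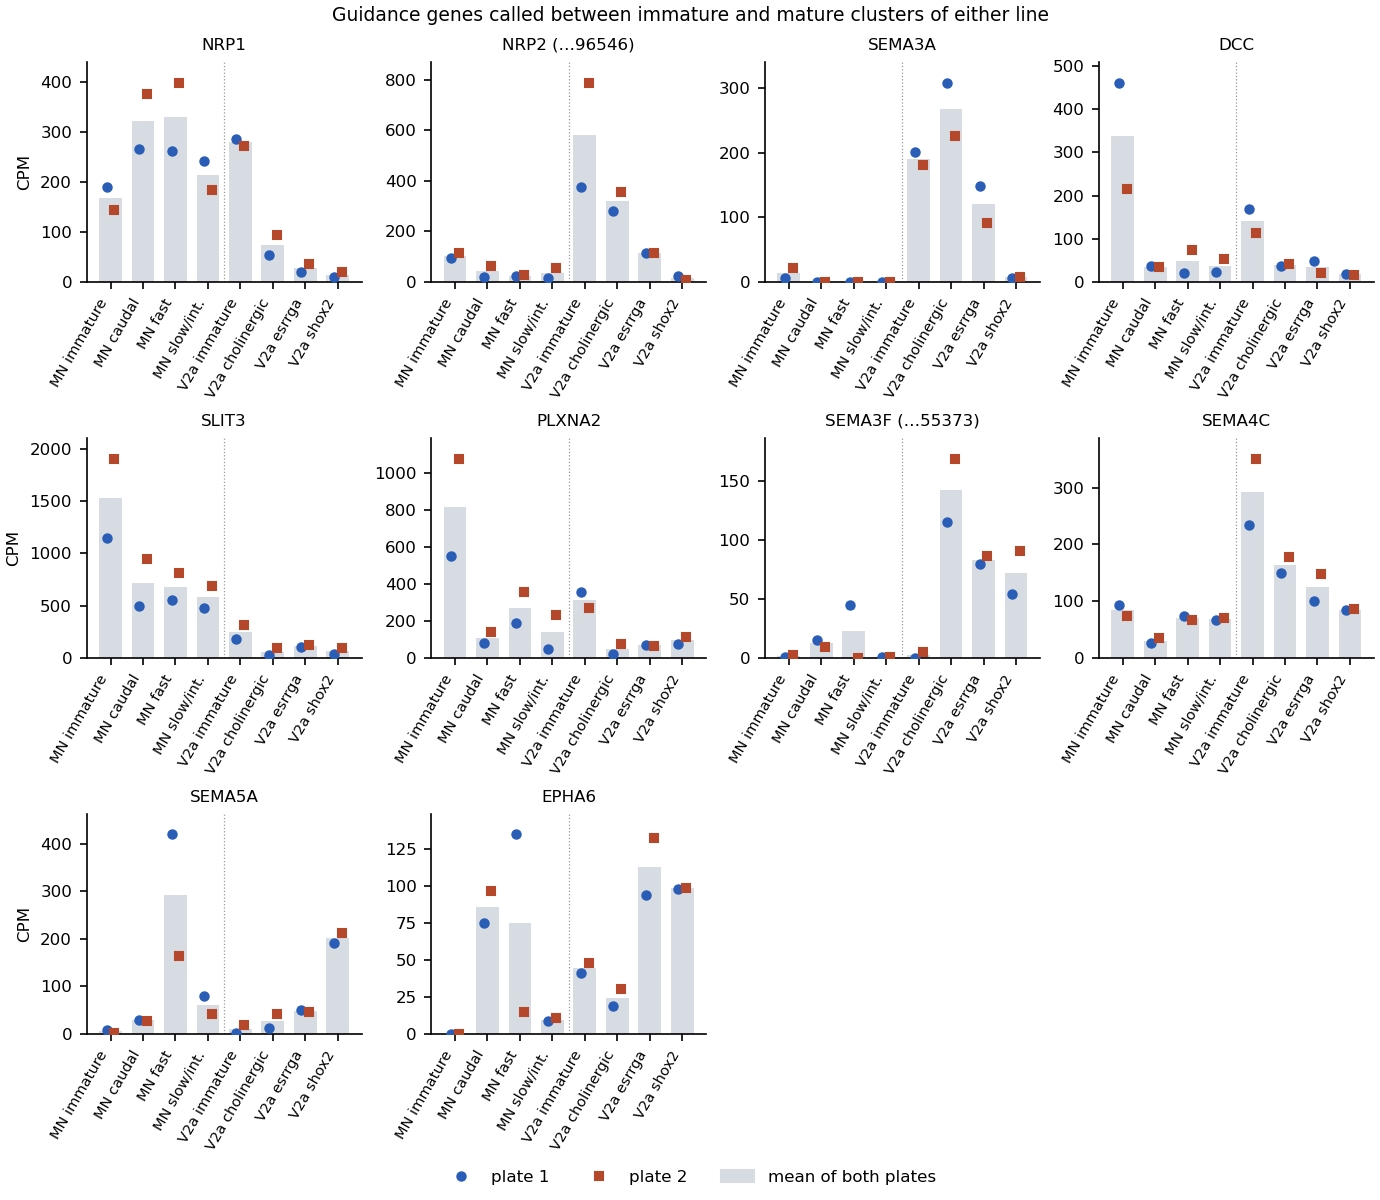
Levels of the 10 guidance genes called between immature and mature clusters of either line, in CPM (y axes, each from 0), in the 4 MN clusters left of the dotted line and the 4 chx10:GFP clusters right of it; points are plates 1 and 2, bars are their mean, and each line was normalised separately. DCC lies at 462 and 216 CPM in immature MNs and at 74.8 CPM or less in mature MNs, and NRP1 lies at 286 and 273 CPM in immature V2a INs and at 93.1 CPM or less in mature V2a INs.

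Mature MNs were then compared by the speed module to which their clusters were matched, and between these clusters and the one named caudal. In fast against slow/intermediate MNs, 0 of 87 guidance genes were called by edgeR, against 0.159% of all genes. An unadjusted p below 0.05 was found for 18 of them and for 1215 of all 18215 genes tested. The Wald test of DESeq2 called 13 guidance genes. Its share of all genes is not given here, so that count is not a result about guidance genes in particular. The median log2 difference was −0.55 for the guidance genes and −0.41 over all genes. The smallest p belonged to NRP2 (ENSDARG00000038446), which had 42.9 and 56.8 CPM in fast MNs, against 0.0862 and 0.119 CPM in slow/intermediate MNs (log2 difference 8.89, adjusted p = 0.0954). It reached 10 reads in 17.6% of fast MNs (8.4 to 30.9%), 0% of slow/intermediate MNs (0 to 3.36%) and 11.8% of caudal MNs. Its reads numbered 5 in all slow/intermediate MNs, against 1303 in fast MNs.

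The netrin copy NTN1 (ENSDARG00000105112) lay the other way, at 0.622 and 0.293 CPM in fast MNs and 31.9 and 16.0 CPM in slow/intermediate MNs (adjusted p = 0.231). The repulsive netrin receptor UNC5C (ENSDARG00000099133) had 0 reads in fast MNs, against 11.6 and 15.3 CPM in slow/intermediate MNs, at least 24.9-fold lower with a floor of 3 reads per plate (adjusted p = 0.346). None of these differences passed the test. Of 48 effectors and 46 genes of other guidance systems, 0 were called by edgeR, with 6 and 15 at an unadjusted p below 0.05.

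In caudal against fast and slow/intermediate MNs, 0 of 87 guidance genes were called by edgeR, against 0.0494% of all genes. An unadjusted p below 0.05 was found for 11 of them and for 708 of all 18215 genes tested. The Wald test of DESeq2 called 3 guidance genes, again without its share of all genes, so that count cannot be read as particular to them. The median log2 difference was 0.44 for the guidance genes and 0.21 over all genes. The Eph receptor epha4b had the smallest p, with 190 and 511 CPM in caudal MNs, against 32.6 and 11.4 CPM in fast and 44.6 and 108 CPM in slow/intermediate MNs (log2 difference 3.09, adjusted p = 0.274). The other 2 with the smallest p were NRP2 (ENSDARG00000038446) and NTN1 (ENSDARG00000105112), at 33.4 and 35.0 CPM and at 43.6 and 35.8 CPM in caudal MNs (adjusted p = 0.622 for both). Of the effectors and of the other guidance genes, 0 were called by edgeR, with 3 and 5 at an unadjusted p below 0.05.

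Among mature V2a INs, SEMA3A was the only guidance gene called between the clusters. It had 309 and 227 CPM in the cholinergic cluster, 149 and 91.1 CPM in the esrrga cluster and 6.09 and 7.30 CPM in the shox2 cluster, an order that held on both plates without overlap. The share of cells with 10 reads was 46.6% (39.3 to 53.9%), 21.2% (15.2 to 28.4%) and 0.787% (0.0199 to 4.31%) in the same order of clusters.

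In cholinergic cells against the mean of esrrga and shox2 cells, SEMA3A was higher (log2 difference 3.23, SE 0.30, adjusted p = 0.0122) and was the only 1 of 94 guidance genes called, against 0.164% of all genes. The median log2 difference was 0.33 for the guidance genes and 0.10 over all genes. Next by p came NRP2 (ENSDARG00000096546), with 281 and 357 CPM in cholinergic, 113 and 115 CPM in esrrga and 21.3 and 8.26 CPM in shox2 cells (adjusted p = 0.0606). Its levels had the same order as those of SEMA3A on both plates, and it was called in 10 of 12 alternatives tested. The third, epha4b, had 32.0 and 67.0 CPM in cholinergic, 134 and 146 CPM in esrrga and 294 and 306 CPM in shox2 cells (log2 difference −2.13, adjusted p = 0.0938). The 8 oligodendrocyte markers summed to 3221 and 10190 CPM in cholinergic, 2141 and 3453 CPM in esrrga and 1713 and 3995 CPM in shox2 cells, and their part in these differences was not tested.

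In esrrga against shox2 cells, SEMA3A was again the only 1 of 94 guidance genes called (log2 difference 4.12, SE 0.41, adjusted p = 0.0272), against 0.0433% of all genes. The median log2 difference was 0.003 for the guidance genes and 0.01 over all genes. SEMA3F (ENSDARG00000011163) and NRP2 (ENSDARG00000096546) followed with log2 differences of 3.40 (adjusted p = 0.207) and 2.94 (adjusted p = 0.25), and were not called. In both comparisons 0 of 49 effectors and 0 of 51 genes of other guidance systems were called by edgeR, with 5 and 12 at an unadjusted p below 0.05 in cholinergic cells and 2 and 9 in esrrga cells. Of all 20782 genes tested, 1616 in cholinergic and 910 in esrrga cells had such a p. The call of SEMA3A between esrrga and shox2 cells was lost in 7 of 12 alternatives, at adjusted p of up to 0.234, and that in cholinergic cells in 2 of 12, at up to 0.11.

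**Figure D4:**
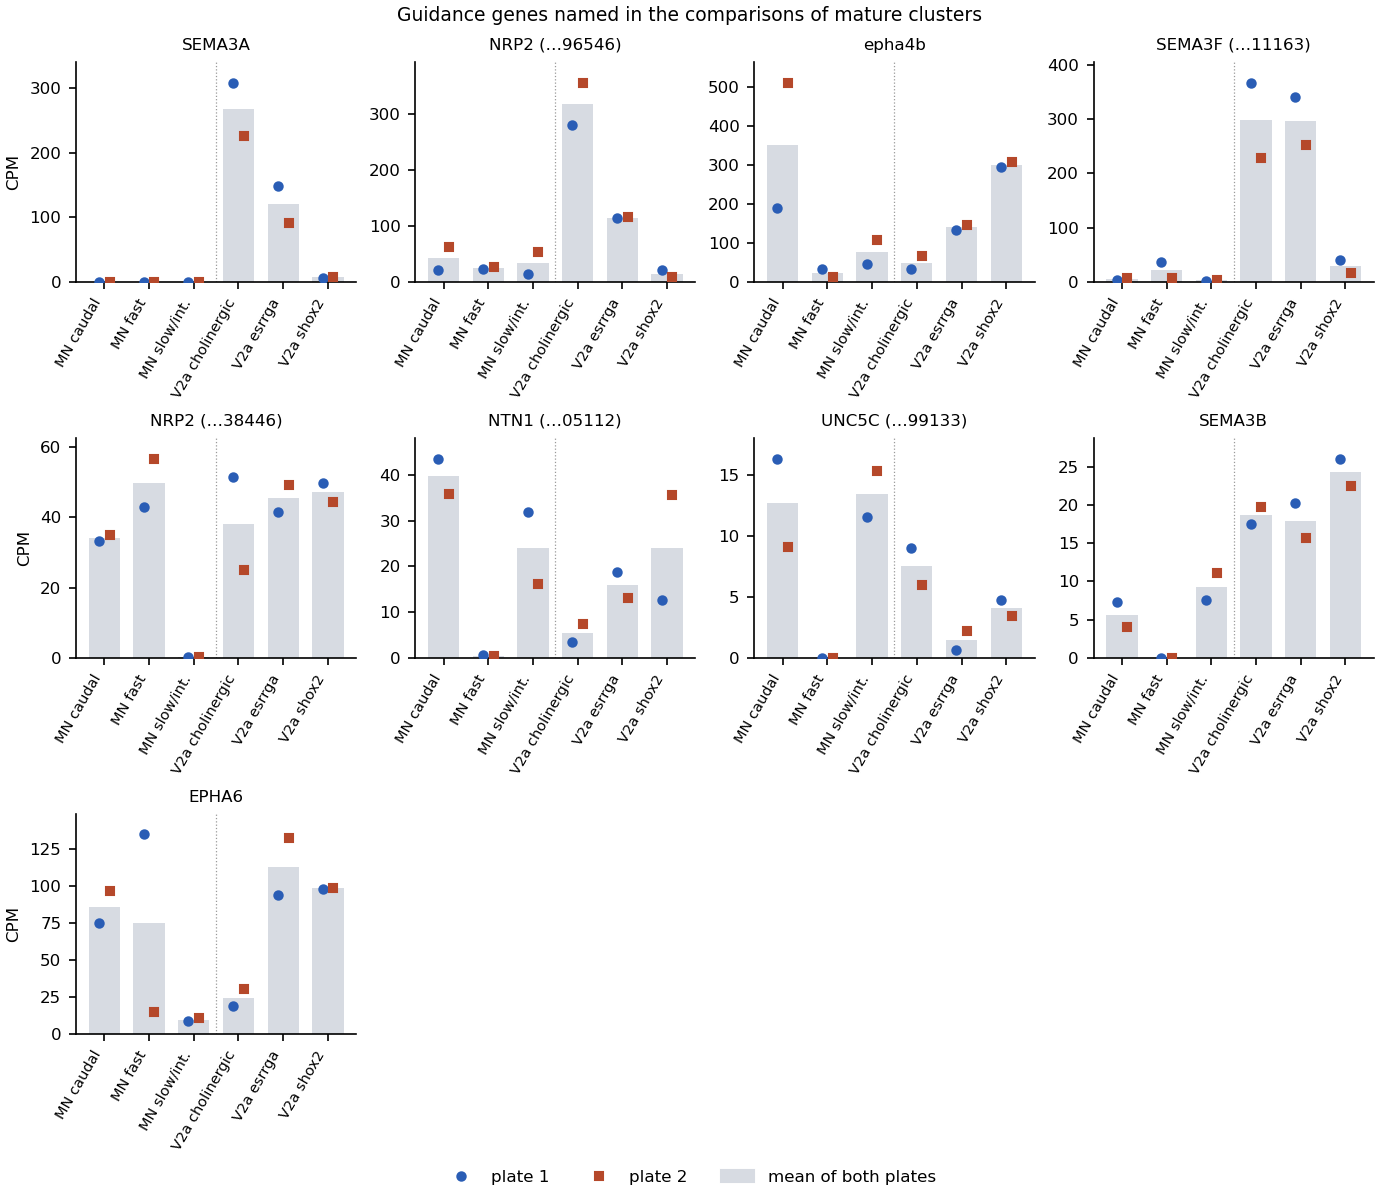
Levels of the guidance genes named in the comparisons of mature clusters, in CPM (y axes, each from 0), in the mature MN clusters left of the dotted line and the mature chx10:GFP clusters right of it; points are plates 1 and 2, bars are their mean, and each line was normalised separately. SEMA3A is highest in the cholinergic, next in the esrrga and lowest in the shox2 cluster on both plates, and NRP2 (ENSDARG00000038446) is near 0 in slow/intermediate MNs alone.

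A last test asked whether the difference between fast and slow/intermediate MNs was unlike that between cholinergic V2a INs and the esrrga and shox2 V2a INs. Of 94 guidance genes 1 was called, against 0.14% of all genes, and the median difference of log2 differences was −0.71 for the guidance genes and −0.58 over all genes. The called gene was NRP2 (ENSDARG00000038446), with a difference of 9.25 (SE 1.58, adjusted p = 0.0293). In V2a INs it had 51.5 and 25.0 CPM in cholinergic, 41.6 and 49.3 CPM in esrrga and 49.96 and 44.5 CPM in shox2 cells, and no V2a cluster had a level as low as that of slow/intermediate MNs. The call was lost when cells were thinned (adjusted p = 0.18) and when the guidance genes were kept among the genes for clustering (adjusted p = 0.138). The next by p were SEMA3B (adjusted p = 0.0887) and EPHA6 (adjusted p = 0.215), neither called. Of 50 effectors and 51 other guidance genes, 0 were called by edgeR, with 6 and 12 at an unadjusted p below 0.05, against 1426 of all 22164 genes tested.

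Over all 12 comparisons, 33 of the 97 guidance genes tested (34%) were called at least once, against 10.2% of all genes. Levels of these genes over every group and plate are drawn in the heat map, ordered by family from the ephrins to the robos.

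**Figure D5:**
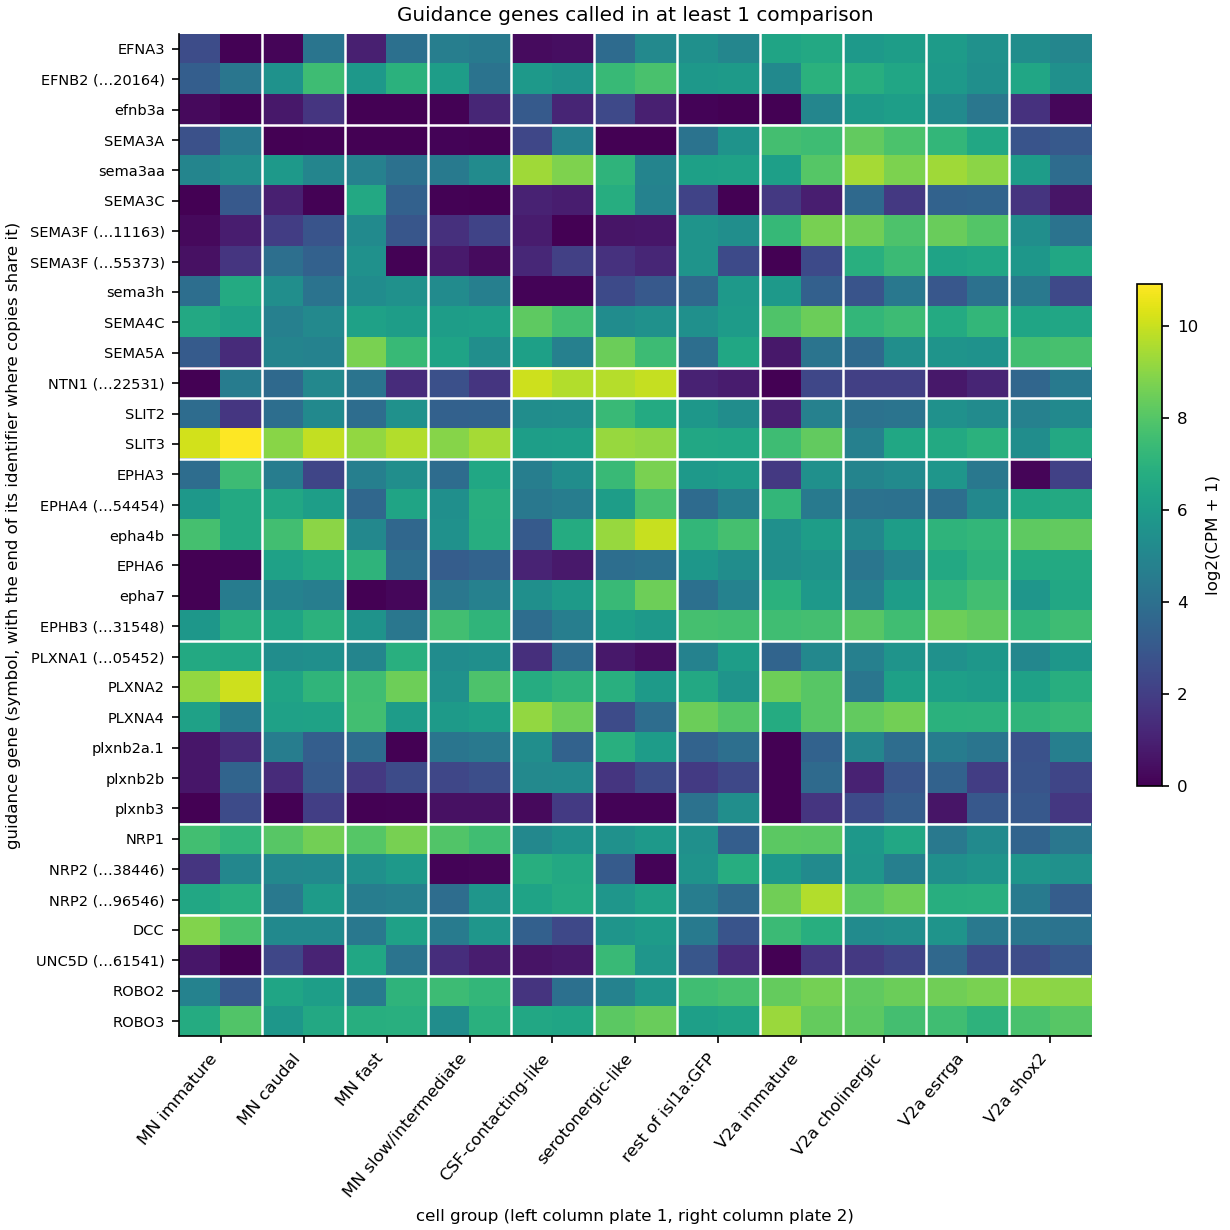
Levels of the 33 guidance genes called in at least 1 comparison, as log2(CPM + 1) by colour, in the cell groups of both lines (columns, plate 1 left and plate 2 right of each group), with white lines between families; the MN clusters, the other isl1a:GFP classes and the chx10:GFP clusters were normalised separately. SLIT3 is bright in every MN cluster, NTN1 (ENSDARG00000022531) in CSF-contacting-like and serotonergic-like cells, and SEMA3A is near 0 in mature MNs and high in cholinergic and esrrga V2a INs.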

How the data were processed

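Single GFP+ cells of the isl1a:GFP and chx10:GFP lines were measured by Smart-seq2. The authors mapped the reads to GRCz11 with STAR 2.5.3a, kept uniquely mapped reads and deposited raw counts per gene and well, without normalization; their counting program and annotation release are not given in the sources used here. The submitters' processing notes also name R 4.0.5 and Seurat 4.0.2. Spike-ins (92 sequences) took 3.17% of the counts and the GFP reporter 0.517%, and both stayed out of library sizes and tests.

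Wells with 2000 to 9000 genes and at most 30% spike-in reads were kept, and no doublet program was run, since single cells had been sorted. Cells were clustered with Seurat 5.3.0 (2000 variable genes, 10 principal components, resolution 0.6) after the guidance genes had been held out. Integration across plates was used for the isl1a:GFP line only, and cells of both chx10:GFP plates were clustered jointly with no such step. A cluster was named from at least 3 markers, or from both where 2 were listed, each found in 10% of its cells. That rule was set after clusters had been seen. The shox2 cluster was named from 2 markers. The esrrga cluster joined clusters of 100 and 81 cells, each named from 4 markers. Both the esrrga and the shox2 cluster carry the name of 1 gene only. Counts were summed per plate and group and tested in R 4.3.3 with edgeR 4.0.16 (estimateDisp, glmQLFit and glmQLFTest with TMM factors, filterByExpr, Benjamini-Hochberg adjustment over all genes tested). The comparison of MN-like and chx10:GFP cells had no block, and the others had plate as a block, because 1 pool of cords supplied every group of its plate. Deviations of groups of the same plate had a median correlation of 0.118 between isl1a:GFP classes, 0.176 between MN clusters and 0.0351 between V2a clusters. With 2 pools per line, p-values of the first comparison measure only the spread between these pools. In the others, with plate as a block, they measure only how differences between groups varied from plate to plate.

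Shares of cells come from cells thinned to 240501 reads, with exact Clopper-Pearson intervals at 95%. Symbols were found for 29200 of the 32519 genes. Named genes were up to 6 called genes per comparison with the largest log2 difference in size, changed the same way on both plates and with at least 20 CPM in the higher group, and the 3 with the smallest p where fewer than 3 were called; other genes given with values were picked after their values had been seen. The guidance genes and the other lists were chosen with earlier results of these data known. No gene lengths or sequences were used. DESeq2 1.42.0, other normalization, filters, thinning, blocks, clusterings and plates left out were tried as alternatives.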

Additional observations from a re-analysis of the deposited data

Results flagged for a closer look

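NRP2 (ENSDARG00000038446) stood out because the difference between fast and slow/intermediate MNs was unlike the difference between cholinergic V2a INs and the esrrga and shox2 V2a INs, by 9.25 on the log2 scale (SE 1.58, adjusted p = 0.0293 in edgeR's test of that difference). The fast MN cluster held 8 and 47 cells, and the gene was called in 8 of the 10 alternatives in which it was tested. The size of the difference rested on 5 reads in all slow/intermediate MNs, against 1303 reads in fast MNs. By itself the difference between these MN clusters was not called (adjusted p = 0.0954 in edgeR's test).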

How the results depend on the processing

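Counts of guidance genes called changed with the test, the filter and the clustering. In MN-like against chx10:GFP cells, 3 were called, against 12 without the filter on low counts, 18 with the Wald test of DESeq2 and 7 with thinned cells. There were 13 with the plate number as a replicate block and 9 without the immature clusters. The 3 genes were among them each time, but efnb3a was not called under a stricter minimum of genes per well (adjusted p = 0.0608). In the isl1a:GFP classes 25 were called, against 39 without the filter, 58 with DESeq2 and 22 without the replicate block. In the MN clusters 4 were called, against 17 without the filter, 35 with DESeq2, 0 without the replicate block and 9 at resolution 0.8. Clustering over 15 principal components gave 1, and keeping the guidance genes for clustering gave 7. Merging plates without integration gave 2, and a joint fit of both lines gave 10. Immature MNs were not tested with plates merged, so that count covers unlike comparisons. In the V2a clusters 8 were called, against 15 without the filter, 27 with DESeq2, 16 with 15 principal components and 9 without the replicate block. Under a stricter minimum of genes per well 14 were called, but immature V2a INs were not tested there, so the counts cover unlike comparisons. For the difference between MNs and V2a INs 1 was called, against 7 without the filter, 13 with DESeq2, 5 with 15 principal components and 0 with the guidance genes kept for clustering. These counts cover guidance genes alone and are given without the share of all genes called in the same setting. They therefore do not tell a change in these genes from a change in the test. The cause was not tested.

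Of 735 values of 51 named results under alternatives, none was reversed, 596 kept their side of the threshold, or stayed within 1 SE where there was no test, 59 fell below it, 39 rose above it and 41 without a test moved by more. A limit on mitochondrial reads, among these alternatives, left out no passing well. Its values therefore equalled those of the main fit, and they are included in the 596 and in the counts of alternatives given above. The stricter minimum of genes gave no result for the MN clusters, for immature V2a INs or for the difference between MNs and V2a INs. Merging plates without integration gave an immature MN cluster of 53 cells. It had fewer than 5 cells on a plate, so immature MNs were not tested in that setting. Without plate 2 of chx10:GFP, immature V2a INs had 0 reads of SEMA3F (ENSDARG00000055373), so its fold had no fixed size. Cells per plate were as low as 8, and genes that missed the threshold may still differ.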
